A study of Mus musculus with 24 samples.

Results

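Pachytene spermatocytes were compared with leptotene spermatocytes by total RNA sequencing. The comparison takes the 4 total RNA libraries of each stage, 8 of the 24 libraries of the series, chosen by their stage and assay labels. All cells came from the testes of wild-type NMRI mice whose spermatogenesis had been synchronised by blocking the synthesis of retinoic acid with WIN18,446 and then giving retinoic acid. Each mouse received 2 mg of 5-ethynyl uridine, which labels newly made RNA, at 24 days of age and 3 h before the testes were taken, and germ cells were sorted by ploidy. The leptotene libraries, which serve as the reference, therefore carried the same treatments as the pachytene libraries. The remaining libraries of the series hold spermatogonia, preleptotene cells and the nascent RNA of these stages. Leptotene RNA came from 3 animals, of which IND1 gave libraries 1 and 2, IND4 gave library 3 and IND3 gave library 4. Pachytene RNA came from 2 animals, IND2 with libraries 1 and 3 and IND4 with libraries 2 and 4, so that 1 animal gave both stages.

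In leptotene, the first substage of meiotic prophase, chromosomes condense along protein axes and the meiotic endonuclease cuts DNA so that homologues can pair and recombine. In pachytene the homologues are fully synapsed, breaks are resolved as crossovers, the X and Y chromosomes are enclosed in a transcriptionally silent sex body, and many genes of the later spermatid and sperm are first transcribed. Some RNAs made in pachytene are stored and translated only in spermatids.

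The deposited values are FPKM, fragments scaled to gene length and library size. A gene was tested when it reached 1 FPKM in at least 2 of the 8 libraries, which left 16639 of 52231 rows. A difference is the pachytene minus the leptotene mean of log2(FPKM + 1), which understates the change of genes near 0, and it is called where limma's Benjamini-Hochberg adjusted p was under 0.05. Values of libraries that share an animal and a stage were averaged first, so each difference rests on 3 leptotene and 2 pachytene animals. Read depth is unknown, since the lowest FPKM values gave no clear whole reads, and 11988 to 13147 genes per library reached 1 FPKM.

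Leptotene library 2 stood apart from its group. Its Spearman correlation over the tested genes was 0.437 to 0.470 with leptotene libraries 1, 3 and 4, called the other leptotene libraries below, and 0.847 to 0.880 with the 4 pachytene libraries. The other leptotene libraries correlated at 0.827 to 0.906 among themselves and at 0.237 to 0.357 with pachytene. At the genes called higher in pachytene, leptotene library 2 stood at a median of 78.6% of the pachytene level, against 6.93% to 7.62% in the other leptotene libraries. At the genes called lower, it stood at a median of 25.3% of the level in the other leptotene libraries. Its spike-in RNAs took 8.19% of the summed FPKM, against 2.49% to 4.54% in the other libraries. Leptotene library 1, from the same animal, did not show this profile. Pachytene library 3 deviated less and in the opposite direction, with a median of 14.3% of the leptotene level at the genes called lower, against 3.99% to 6.39% in pachytene libraries 1, 2 and 4. What set these libraries apart was not tested, and each count below was also computed without leptotene library 2.

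Across all genes, 3989 (24.0%) were higher and 3333 (20.0%) lower in pachytene, 44.0% in all. Of the genes higher, 2065 reached 1 FPKM in none of the other leptotene libraries. Of the genes lower, 2110 reached it in no pachytene library. Many calls thus concern genes that passed the level filter through 1 stage. The median log2 difference over the tested genes was 0.10. Without leptotene library 2 the counts were 5467 higher (32.9%) and 4321 lower (26.0%), 58.8% in all. Of the genes called with all libraries, 3971 of those higher and 3306 of those lower kept their call without it, and none was called in opposite directions. All pachytene libraries lay above all leptotene libraries for 16.2% of the tested genes and below them for 19.6%, or for 35.6% and 30.4% without leptotene library 2. A rise of at least 4-fold on this scale was called for 1457 genes and a fall of that size for 762.

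The calls rest on few animals, and IND4, which gave both stages, entered the fit as independent means. With each animal as a fixed replicate block, which takes the difference from IND4 alone, limma called 0 genes in either direction (2382 higher and 2488 lower at an unadjusted p under 0.05). Without leptotene library 1, which leaves library 2 alone to stand for animal IND1, limma called 0 genes in either direction, with 1360 higher and 1885 lower at an unadjusted p under 0.05, and without leptotene library 4 it called 1774 higher and 1875 lower. Scaling the libraries by their summed spike-ins, which were added after extraction and so do not measure RNA per cell, moved the median of all genes to 0.78 and the split to 7320 higher and 2274 lower, 76.3% higher against 54.5% in the deposited scale. Changes are therefore given relative to the composition of each library. In such bulk samples, less RNA of a gene per cell cannot be told apart from fewer cells that carry it.

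Of 16 stage markers, 13 were called in the direction of their stage and 3 leptotene markers were not called. Stra8, the retinoic acid target that commits germ cells to meiosis (chr6:34920163-34939344, plus strand), stood at 31.3, 4.56, 27.3 and 21.4 FPKM in leptotene libraries 1 to 4 and was listed at 0, 0, 1.88 and 0.440 FPKM in pachytene libraries 1 to 4. All pachytene values lay below all leptotene values, and the log2 difference was -3.84 (SE 0.42, limma adjusted p = 0.00778). Dmc1, the meiotic recombinase that loads on resected breaks (chr15:79561497-79605109, minus strand), stood at 57.4, 9.04, 19.9 and 60.3 FPKM in leptotene and at 0.0533, 0.222, 5.05 and 0.197 FPKM in pachytene. The stages did not overlap, with leptotene library 2 the lowest of its group and pachytene library 3 the highest of its group. Its log2 difference was -4.17 (SE 0.57, limma adjusted p = 0.00778). Piwil1, the PIWI protein that binds pachytene piRNAs (chr5:128702524-128755474, plus strand), stood at 2.49, 5.08 and 1.60 FPKM in the other leptotene libraries, at 94.3 FPKM in leptotene library 2 and at 142, 162, 84.7 and 153 FPKM in pachytene. Leptotene library 2 lay inside the pachytene range and the other leptotene libraries far below it. The log2 difference was 4.32 (SE 0.75, limma adjusted p = 0.00793) with all libraries and 5.12 (SE 0.41, limma adjusted p = 0.000390) without that library.

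Of the 8 leptotene markers listed for the check, Stra8, Dmc1, Prdm9, Prss50 and Tex15 fell and Meiob, Meioc and Sycp3 were not called. Meiob, a single-strand DNA binding protein of meiosis, was at 20.5, 5.31, 3.08 and 27.3 FPKM in leptotene and at 5.14, 6.39, 7.38 and 5.34 FPKM in pachytene (log2 difference -0.66), and leptotene library 3 lay below all pachytene libraries. Meioc, which keeps germ cells in prophase, was at 59.7 to 92.6 FPKM in leptotene and at 76.7, 80.4 and 83.5 FPKM in pachytene libraries 1 to 3, with library 4 higher still and a log2 difference of 0.18 (SE 0.37, limma adjusted p = 0.717). Sycp3, a lateral element protein of the synaptonemal complex, was at 11.4 to 26.6 FPKM in leptotene and at 2.07 to 20.3 FPKM in pachytene, and the ranges overlapped. All 8 pachytene markers, Piwil1, Adam2, Spata16, Pgk2, Ccna1, Hspa2, Ldhc and Cetn1, rose, by 2.36 (Ccna1) to 4.47 (Cetn1) on the log2 scale.

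**Figure D1:**
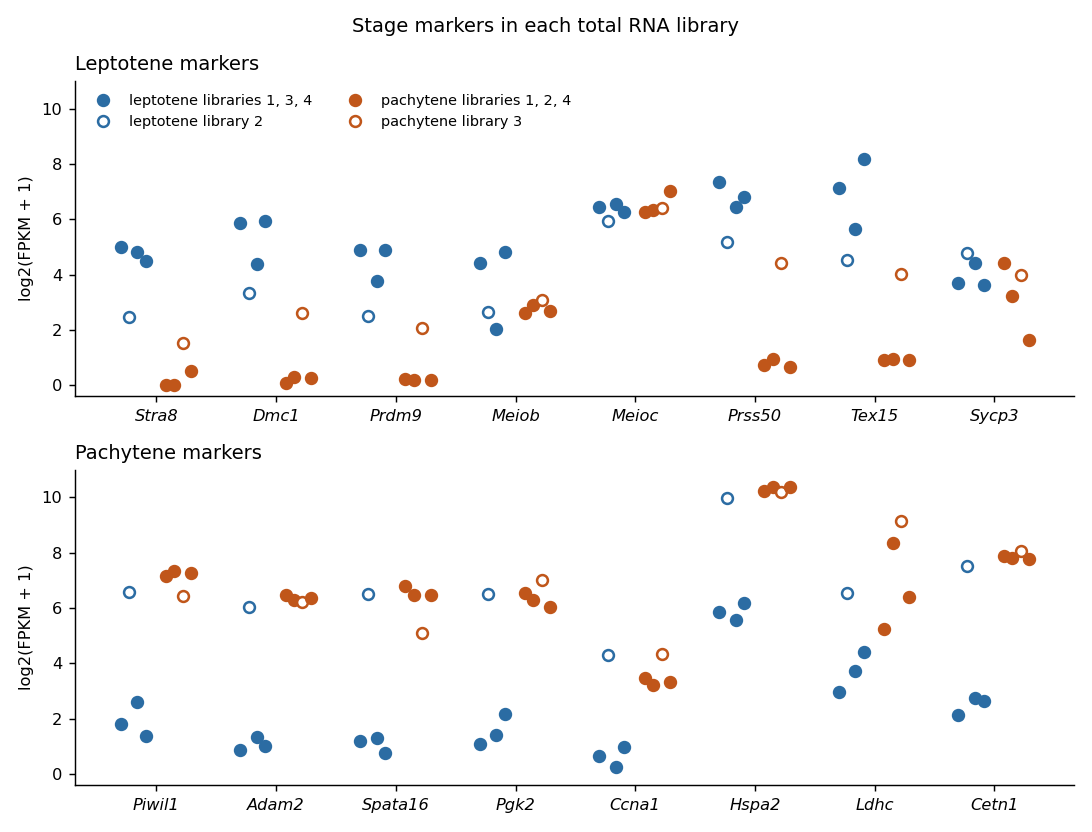
Level of 8 leptotene and 8 pachytene markers in each library, as log2(FPKM + 1); each point is 1 library, and open symbols mark leptotene library 2 and pachytene library 3. Leptotene library 2 lies with pachytene for Piwil1 at 94.3 FPKM, and pachytene library 3 lies above the rest of its group for Stra8 at 1.88 FPKM and Dmc1 at 5.05 FPKM.

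Promoters of the genes that moved were searched for short motifs of regulators known from this stage, on both strands, in RefSeq windows (GRCm38.p6) of 250 bases before to 50 bases after the start. Windows were matched for 2134 genes called higher, 2033 called lower and 9439 tested in all. The core of the MYB motif, GGCAGTT, was in 7.03% of the promoters of genes higher, 3.39% of genes lower and 4.73% of all tested. The RFX motif was in 2.67%, 0.836% and 1.71%, in the same order. The motif CNCCTCAG bound by STRA8 was in 8.76%, 12.5% and 11.3%, and the E2F motif GGCGGGAA in 3.33%, 5.80% and 4.91%. The CRE motif TGACGTCA was in 3.28%, 3.20% and 3.70%. Over all 32851 promoters of the table the shares were 4.12% for MYB, 1.06% for RFX, 7.94% for STRA8, 2.19% for E2F and 1.79% for CRE. A match describes the letters and does not show binding. RefSeq starts can differ from the gene bounds given above, as for Piwil1. The windows that follow belong to named genes that rose or fell and hold a match before the RefSeq start, printed 5′ to 3′ along the gene with the match in capitals.
Piwil1, chr5:128736111-128736182, plus strand, MYB, higher by 4.32: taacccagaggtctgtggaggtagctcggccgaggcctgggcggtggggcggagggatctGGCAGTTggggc
Mroh2b, chr15:4898594-4898665, plus strand, MYB on the other strand, higher by 4.70: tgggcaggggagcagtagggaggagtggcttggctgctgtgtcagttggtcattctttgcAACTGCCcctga
Pgk2, chr17:40208744-40208815, minus strand, MYB, higher by 4.02: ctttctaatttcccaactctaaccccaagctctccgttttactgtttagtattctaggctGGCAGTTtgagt
Prdm9, chr17:15564383-15564455, minus strand, STRA8 overlapped by E2F on the other strand, difference -3.46: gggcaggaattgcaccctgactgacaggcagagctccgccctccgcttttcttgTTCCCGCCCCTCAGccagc
Prss50, chr9:110857740-110857812, plus strand, STRA8 on the other strand, difference -4.82: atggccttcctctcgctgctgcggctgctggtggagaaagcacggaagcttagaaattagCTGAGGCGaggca

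Many members of the gene lists described next passed the level filter through 1 stage alone, since 2783 of the tested genes reached 1 FPKM in none of the other leptotene libraries and 2943 reached it in no pachytene library. Such genes could pass only by differing, so the counts describe the tested members and not whole pathways. Each list count below stands beside the 24.0% of all tested genes that rose and the 20.0% that fell. Without leptotene library 2 these shares were 32.9% and 26.0%.

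Some genes that start meiosis and most tested genes that prepare DNA breaks fell, where 20.0% of all tested genes did. Of 13 tested genes of meiotic entry 6 fell and 7 were not called, with a median log2 difference of -1.63. The count of falls was 7 without leptotene library 2. The 6 that fell with all libraries were Stra8, Ugt8a, Gm4969, Fbxo47, Cyp26b1, an enzyme that degrades retinoic acid, and Rarg, a retinoic acid receptor. Gm4969, the gene of the STRA8 partner MEIOSIN, stood at 25.5, 3.82, 20.7 and 21.7 FPKM in leptotene and at 0.117, 0.242, 2.71 and 0.229 FPKM in pachytene (log2 difference -3.48, SE 0.44, limma adjusted p = 0.00778). Ythdc2, Dazl and Rbm46, RNA-binding regulators of the same step, had log2 differences of -0.97, -0.77 and -0.38 and were not called. Of 12 tested genes of break formation 8 fell and 4 were not called (median -1.56), the same counts as without leptotene library 2. Prdm9, the histone methyltransferase that places breaks at hotspots, stood at 29.0, 4.72, 12.6 and 28.3 FPKM in leptotene and at 0.168, 0.133, 3.16 and 0.131 FPKM in pachytene (log2 difference -3.46, SE 0.49, limma adjusted p = 0.00778). The stages did not overlap, and pachytene library 3 alone was above 1 FPKM in its group. Mei1, Mei4 and Rec114, which act with the break-forming complex, fell by 2.26, 1.62 and 1.37 on the log2 scale. Spo11, the endonuclease itself, had a log2 difference of 1.14 and was not called.

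Later recombination and chromosome axis genes were called lower in shares near the 20.0% of all tested genes, and fewer were called higher than the 24.0% of all. Of 28 tested strand exchange genes 8 fell and 2 rose, and of 21 crossover genes 5 fell and 2 rose. Of 23 axis and synaptonemal complex genes 6 fell and 1 rose, and of 30 checkpoint and silencing factors 7 fell and 1 rose. Without leptotene library 2, 9 strand exchange genes fell and 2 rose, and 6 crossover genes fell and 3 rose. In the same fit 8 axis genes fell and 2 rose, and 9 checkpoint and silencing factors fell and 6 rose. Medians of these 4 lists ran from -0.59 to -0.15, but from 0.23 to 0.68 with spike-in scaling. Tex15, needed for loading of the recombinases, had the largest fall among their members, from 141, 21.8, 49.8 and 288 FPKM in leptotene to 0.893, 0.927, 15.3 and 0.886 FPKM in pachytene (log2 difference -4.85, SE 0.82, limma adjusted p = 0.00791). Atm, the kinase that answers DNA breaks, fell by 3.15 on the log2 scale, and the cohesin subunits Smc3, Rad21l and Rad21 fell by 3.20, 2.90 and 2.04. The X-linked crossover gene Tex11 fell by 2.61. Those that rose with all libraries were Psmc3ip and Zswim7, which assist the recombinases, Cntd1 and Prr19, needed for crossover maturation, Syce1, a central element protein, and Ago4. Prr19 stood at 16.1, 55.3, 12.4 and 11.4 FPKM in leptotene and at 66.6, 57.5, 67.1 and 46.9 FPKM in pachytene (log2 difference 1.79, SE 0.49, limma adjusted p = 0.0227). Leptotene library 2 alone overlapped the pachytene range.

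Histone genes expressed during DNA replication had the lowest median of the lists examined. Of 59 tested replication-dependent histone genes 49 fell and 3 rose, or 50 and 4 without leptotene library 2. The median log2 difference was -3.43 with all libraries. Their summed level was 8831 to 20756 FPKM in the other leptotene libraries, 2075 FPKM in leptotene library 2 and 858 to 1481 FPKM in pachytene. Hist1h1a, a linker histone, stood at 1511, 176, 3579 and 1048 FPKM in leptotene and at 14.1, 35.6, 94.3 and 31.3 FPKM in pachytene (log2 difference -5.11, SE 0.74, limma adjusted p = 0.00778). All pachytene libraries lay below all leptotene libraries, and leptotene library 3 was the highest. The 3 that rose were Hist2h2be, Hist2h2ab and Hist2h2ac, by 3.80, 3.08 and 1.26 on the log2 scale. Of the histone variants, the testis linker histone Hist1h1t stood at 136, 87.4 and 126 FPKM in the other leptotene libraries, at 1084 FPKM in leptotene library 2 and at 1267, 1837, 1190.1 and 1756 FPKM in pachytene. Its log2 difference was 3.19 (SE 0.63, limma adjusted p = 0.00903). Histone genes of a cluster are near-identical, so reads may be divided among copies and values of single members are uncertain.

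Of 46 tested genes of the replication machinery, 19 fell and 1, Chaf1a, rose, or 21 and 3 without leptotene library 2. The helicase subunit Mcm4 stood at 25.0, 3.75, 30.1 and 23.0 FPKM in leptotene and at 0.409, 0.729, 2.61 and 0.390 FPKM in pachytene (log2 difference -3.44, SE 0.50). E2f1, a transcription factor of S phase genes, Mcm2 and Orc1 fell by 2.99, 2.82 and 2.54 on the log2 scale. Pcna, the replication clamp, was not called, at a log2 difference of 0.13. Genes of spermatogonia also fell, 14 of 19 tested for differentiating spermatogonia (median -1.89) and 13 of 17 for undifferentiated ones (median -1.16). These counts of falls were 15 and 14 without leptotene library 2. Dmrt1, a repressor of meiotic entry, stood at 28.1, 8.74, 60.7 and 29.5 FPKM in leptotene and at 0.305, 0.492, 4.36 and 0.335 FPKM in pachytene. Leptotene library 3 was the highest for Dmrt1, and this library correlated with the spermatogonia of the series at 0.813 to 0.871, against 0.708 to 0.787 for leptotene libraries 1 and 4. The part of spermatogonia in the leptotene values was not tested. Id4 and Egr4, transcription factors listed with undifferentiated spermatogonia, rose by 3.35 and 1.72.

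Genes of the sperm tail had the highest median of the lists examined. Of 77 tested axoneme and flagellum genes 73 rose and 4 (Meig1, Cfap20, Ift81 and Ift88) were not called, with a median log2 difference of 2.71. The count of rises was 75 without leptotene library 2. For 39 of the 77, none of the other leptotene libraries reached 1 FPKM. The summed level of the list was 103 to 136 FPKM in those libraries, 2733 FPKM in leptotene library 2 and 2898 to 3274 FPKM in pachytene. Morn5 had the largest rise of the genes named by rule, from 0, 67.8, 1.15 and 0 FPKM in leptotene to 97.3, 135, 95.5 and 97.3 FPKM in pachytene. Its log2 difference was 5.34 (SE 0.80, limma adjusted p = 0.00778). Rsph1, a radial spoke protein, stood at 0.184, 178, 5.72 and 5.05 FPKM in leptotene and at 281, 275, 285 and 242 FPKM in pachytene (log2 difference 5.01, SE 0.47). Leptotene library 2 was below the pachytene range and the other leptotene libraries were far below it. Dynein heavy chains rose, among them Dnah17 by 3.34, Dnah8 by 2.58 and Dnah1 by 3.81, as did the central apparatus genes Spag6l, Spag17 and Hydin by 4.23, 3.76 and 2.82.

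Genes of the acrosome and of sperm-egg interaction rose in 19 of 30 tested cases, and 4 fell, or 20 and 4 without leptotene library 2. Acr, the acrosomal protease acrosin, rose by 3.52 on the log2 scale, and the sperm ADAM proteins Adam1a, Adam5 and Adam1b rose by 2.02, 3.03 and 3.74. Adam2 stood at 0.797, 65.3, 1.51 and 1.03 FPKM in leptotene and at 88.3, 77.7, 73.6 and 81.8 FPKM in pachytene. Spink2, an inhibitor of acrosin, was at 0, 0.759, 1.05 and 1.14 FPKM in leptotene and at 28.0, 23.1, 88.5 and 59.7 FPKM in pachytene, and here leptotene library 2 lay within its group. It rose by 4.62 (SE 0.37, limma adjusted p = 0.00778). Ly6k, a partner of the sperm protein TEX101, was called lower (log2 difference -2.95, SE 0.36), but its pachytene values were 56.3, 85.2, 0.765 and 0.00177 FPKM in libraries 1 to 4 against 60.2 to 88.0 FPKM in leptotene. Within each pachytene animal 1 library was near the leptotene level and the other was below 1 FPKM, so this call rests on animal means. Of 16 tested genes known for their use in spermatids, 12 rose and 4 were not called (median 1.29), and without leptotene library 2 13 rose and 1 fell. Odf4, of the outer dense fibres, stood at 1.66, 1.84 and 2.08 FPKM in the other leptotene libraries and at 112 to 139 FPKM in pachytene. A further 19 genes of that list were too low to be tested, including Tnp1, Akap4 and Odf1.

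The piRNA pathway and transcription factors of pachytene rose in part. Of 31 tested piRNA genes, 14 rose, 3 (Fkbp6, Tex19.1 and Morc1) fell and 14 were not called, with a median of 0.95. Rises and falls were 16 and 3 without leptotene library 2. Tdrd6, a tudor protein of the chromatoid body, stood at 6.09, 416, 5.75 and 9.91 FPKM in leptotene and at 474, 325, 476 and 334 FPKM in pachytene (log2 difference 4.64, SE 0.82, limma adjusted p = 0.00797). Leptotene library 2 lay inside the pachytene range. Mael, Tdrd5 and Henmt1, which act in piRNA biogenesis, rose by 1.87, 1.66 and 1.61, and Piwil2, a PIWI protein present before pachytene, was not called at 0.95. Of 40 tested transcription activators, 16 rose and 9 fell, the falls near the 20.0% of all tested genes, of which 24.0% rose. Rises and falls of activators were 17 and 12 without leptotene library 2. The ciliogenesis factor Rfx2, the bromodomain protein Brdt, Tcfl5 and Sox30 rose by 2.42, 2.60, 2.82 and 2.18. Mybl1, which drives pachytene piRNA precursors, was not called, at 0.33, and neither was Crem, a spermatid activator, at 1.08. Of the activators that fell, Taf7l and Taf9b are X-linked and fell by 4.70 and 3.93.

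Genes of energy metabolism moved in both directions. Of 50 tested isozyme and mitochondrial genes, 21 rose and 14 fell, or 25 and 16 without leptotene library 2. Those that rose included isozymes of glycolysis and respiration used in testis, such as Pgk2 by 4.02, Ldhal6b by 5.14, Gk2 by 4.48, Pgam2 by 4.49 and Cox8c by 4.61. Those that fell included the widely used forms Pkm, Hk2, Gpi1 and Pgam1 and the glucose transporter Slc2a1, by 1.73, 1.35, 1.63, 1.56 and 1.61 on the log2 scale. Of 41 tested heat shock genes 14 rose and 6 fell, where 24.0% of all tested genes rose and 20.0% fell. The heat shock counts were 17 and 9 without leptotene library 2. Hspa2, the testis HSP70 needed to complete male meiosis, stood at 57.1, 1010.4, 46.1 and 72.1 FPKM in leptotene and at 1198, 1331, 1158 and 1323 FPKM in pachytene. Hspd1 and Hspe1, the mitochondrial chaperonin pair, fell by 3.49 and 2.58.

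Of 42 tested genes of cell division, 12 were higher and 10 lower, shares near the 24.0% and 20.0% of all tested genes. Without leptotene library 2 they were 14 and 16. The median was -0.40, but 0.36 with spike-in scaling. Rises were found for Ccna1, the meiotic cyclin A, by 2.36, for the kinases Aurka, Aurkc and Haspin by 2.53, 1.81 and 3.41, and for Pkmyt1, an inhibitor of CDK1, by 2.66. Pttg1, the securin that guards sister chromatid cohesion, stood at 1.89, 2.23, 2.17 and 3.06 FPKM in leptotene and at 29.5, 26.7, 8.38 and 25.2 FPKM in pachytene (log2 difference 2.65, SE 0.37, limma adjusted p = 0.00778). Leptotene library 2 lay with its own group for Pttg1, and pachytene library 3 was the lowest of pachytene. The falls included Ccnd2, Ccnb1, Ccna2 and the X-linked Ccnb3, by 2.66, 1.92, 1.80 and 3.37.

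Of 60 tested regulators of translation and mRNA storage, 15 were higher and 14 lower, about the 24.0% and 20.0% of all tested genes. These counts were 19 and 18 without leptotene library 2. The median was -0.17, but 0.63 with spike-in scaling. Ybx2, which binds and represses stored germ cell mRNA, stood at 24.7, 26.2 and 20.9 FPKM in the other leptotene libraries, at 276 FPKM in leptotene library 2 and at 479, 645, 532 and 479 FPKM in pachytene (log2 difference 3.84, SE 0.60). The poly(A)-binding genes Pabpc2, Pabpc6 and Pabpc1, near copies of each other whose reads may be divided among them, rose by 4.63, 4.41 and 2.62, and the testis poly(A) polymerase Papolb by 3.57. Patl1, Cpeb1, Lin28a and Zfp36l2, which act on mRNA translation or decay, fell by 3.38, 3.10, 3.30 and 2.67. Of 55 tested DNA methylation and chromatin genes 7 rose and 13 fell, or 10 and 19 without leptotene library 2. Their median was -0.17, but 0.61 with spike-in scaling. Morc2b and Kdm4d rose by 4.63 and 2.98, and the histone methyltransferase Suv39h1 and the DNA demethylase Tet3 fell by 3.02 and 2.47. Of 76 tested autosomal ribosomal protein genes, 3 fell and 73 were not called, but without leptotene library 2 11 fell and 3 rose.

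**Figure D2:**
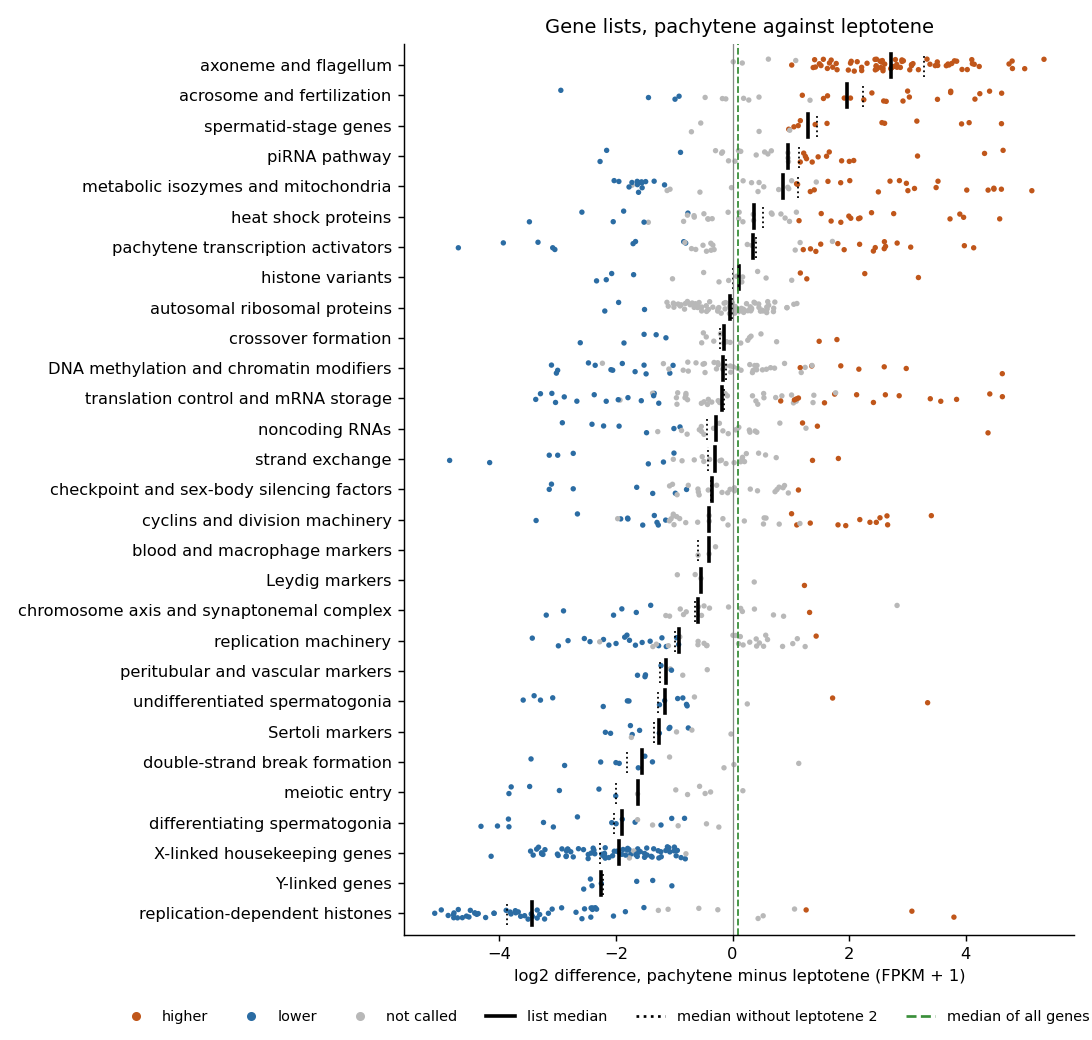
Log2 difference, pachytene minus leptotene, of every tested member of each gene list; orange points were called higher, blue lower and grey not called, solid bars are list medians, dotted bars the medians without leptotene library 2, and the dashed line the median of all genes at 0.10. Axoneme genes lie highest, with a median of 2.71, and replication-dependent histones lowest, with a median of -3.43.

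Genes on the sex chromosomes were lower in pachytene. Of 496 tested X-linked genes, 387 (78.0%) fell and 24 rose, with a median log2 difference of -1.64, and without leptotene library 2 the count of falls was 403 (81.3%). On the autosomes the share of genes that fell ran from 16.3% to 23.5%. The Y chromosome had 15 tested genes, of which 11 fell and the rest were not called, or 13 fell and 1 rose without leptotene library 2. Among 75 tested X-linked housekeeping genes 72 fell and 3 (Rlim, Ndufa1 and Fmr1) were not called, and 55 of the 75 reached 1 FPKM in no pachytene library. Their summed level was 488 to 550.1 FPKM in the other leptotene libraries, 105 FPKM in leptotene library 2 and 4.06 to 60.4 FPKM in pachytene. Hprt, an enzyme of purine salvage, stood at 37.8, 4.35, 28.6 and 40.8 FPKM in leptotene and was listed at 0, 0.181, 3.06 and 0 FPKM in pachytene (log2 difference -4.14, SE 0.53, limma adjusted p = 0.00778). The stages did not overlap, and pachytene library 3 was the highest of its group. Usp9x and Zfx fell by 3.36 and 3.47, and their Y-linked counterparts Usp9y and Zfy1 by 2.55 and 1.64, where Zfy1 and Zfy2 are near copies.

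The median X-linked gene was also set against the median autosomal gene within each library. The difference was 0.23, -1.03, 0.47 and 0.30 on the log2 scale in leptotene libraries 1 to 4 and -1.87, -1.88, -1.26 and -1.85 in pachytene libraries 1 to 4. All pachytene libraries were below all leptotene libraries, with leptotene library 2 and pachytene library 3 closest to each other. Over animals the pachytene mean was -1.72 ± 0.21 (SD, n = 2) and the leptotene mean 0.12 ± 0.46 (SD, n = 3), a difference of -1.84. The exact two-sided permutation test gave p = 0.2, the smallest value that 3 against 2 animals allow. It treated the leptotene and pachytene values of IND4, which gave both stages, as separate animals. Without leptotene library 2 the difference was -2.05, and without the level filter, which adds genes under 1 FPKM, it was -0.21.

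The X-linked genes with the largest rises by the naming rule were Spin2e, Spin2f and Spin2g, spindlin family members that lie in near-identical copies, so their single values are uncertain. Spin2e stood at 0.756, 15.2, 0.169 and 0.233 FPKM in leptotene and at 47.9, 8.99, 14.9 and 26.0 FPKM in pachytene (log2 difference 3.44, SE 0.68, limma adjusted p = 0.00914). Leptotene library 2 overlapped the pachytene range. H2afb3, an X-linked histone variant, was low, at 0 to 0.768 FPKM in leptotene and 1.31 to 2.16 FPKM in pachytene, and rose by 1.27. Among autosomes, chromosome 14 had the highest share of rises (30.8%) and chromosome 13, which carries the largest histone cluster, the highest share of falls (23.5%).

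**Figure D3:**
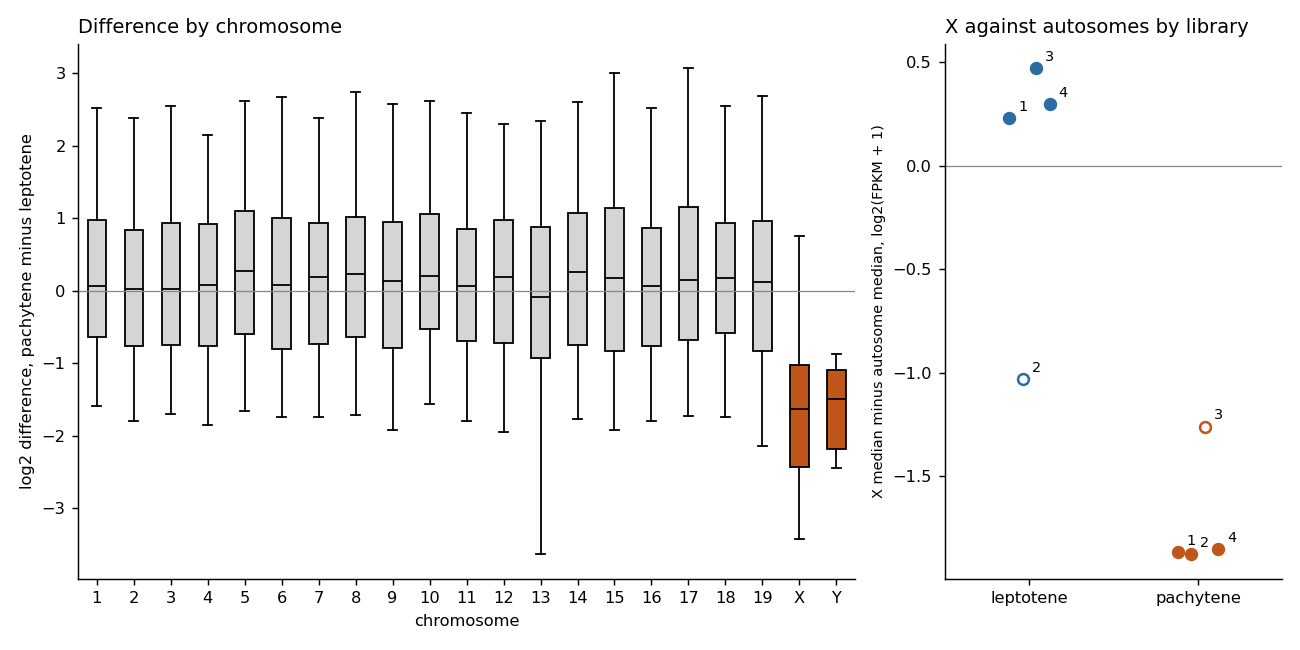
Left, log2 difference of the tested genes by chromosome (box, quartiles; line, median; whiskers, 5th to 95th percentile), with X and Y in orange; right, the median X-linked minus the median autosomal log2(FPKM + 1) of each library, numbered by library, open for leptotene library 2 and pachytene library 3. The median X-linked gene differed by -1.64, and the pachytene libraries lie between -1.88 and -1.26.

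Several widely used genes have a testis-expressed relative, often an autosomal retrocopy of an X-linked gene. Of 17 such pairs with an X-linked widely used gene, that gene fell in 14, the testis gene rose in 12 and both held in 10. The widely used Pgk1, Rbmx and Gk and the testis genes G6pd2 and Hmgb4 did not pass the level filter. Every tested X-linked gene of these pairs fell, where 78.0% of all tested X-linked genes did. Apart from Cstf2 and Zfx, these genes stayed below 1 FPKM in every pachytene library. They passed the filter through leptotene alone and could pass it only by differing. Of 21 further pairs, the widely used gene fell in 8, the testis gene rose in 13 and both held in 5. Here Aldoart1, Aldoart2, Hspa1l and Atp1a4 did not pass the filter. Of all tested genes 24.0% rose and 20.0% fell. Cetn2, the X-linked centrin, stood at 4.46, 2.03, 5.72 and 6.35 FPKM in leptotene and was listed at 0, 0, 0.612 and 0 FPKM in pachytene. Its relative Cetn1 stood at 3.37, 5.78 and 5.17 FPKM in the other leptotene libraries, at 183 FPKM in leptotene library 2 and at 233, 224, 264 and 216 FPKM in pachytene (log2 difference 4.47, SE 0.67, limma adjusted p = 0.00778). Cetn1 made up at least 99.8% of the summed FPKM of the pair in every pachytene library and 43.1% to 50.2% in the other leptotene libraries. Prps1l1, relative of the X-linked nucleotide synthesis gene Prps1, made up 8.10% to 35.0% of the pair in the other leptotene libraries, 98.7% in leptotene library 2 and 99.5% to 99.9% in pachytene. Pdha2, the pyruvate dehydrogenase subunit of testis, rose by 3.53 and the X-linked Pdha1 fell by 1.78. Among pairs of autosomal genes, Ccna1 took 1.02% to 7.19% of the summed FPKM of Ccna2 and Ccna1 in the other leptotene libraries and 76.8% to 86.2% in pachytene. Cyct, the testis cytochrome c, rose by 3.49 and Cycs fell by 1.61.

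Other pairs did not follow this pattern. Slc25a31, the testis ADP/ATP carrier, had 68.4, 42.1, 70.9 and 75.8 FPKM in leptotene and 37.0, 48.8, 43.0 and 50.7 FPKM in pachytene, with a log2 difference of -0.56 (SE 0.37, limma adjusted p = 0.254), while its X-linked relative Slc25a5 fell by 1.95. Utp14b, Rbmxl2 and Gapdhs were not called, at -0.72, 0.81 and 0.46. Without leptotene library 2, limma called Rbmxl2 higher (0.94, adjusted p = 0.0192), and Utp14b (-0.87, adjusted p = 0.0310) and Slc25a31 (-0.67, adjusted p = 0.0319) lower. Rpl39l, the testis relative of the X-linked Rpl39, rose by 3.09 (SE 0.63, limma adjusted p = 0.00960), from 19.6, 2.45, 33.4 and 27.2 FPKM in leptotene to 139, 193, 157 and 199.9 FPKM in pachytene. For this gene leptotene library 2 was the lowest of all 8 libraries. A retrocopy can share reads with the gene it came from, so shares within a pair are uncertain where the sequences are alike.

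**Figure D4:**
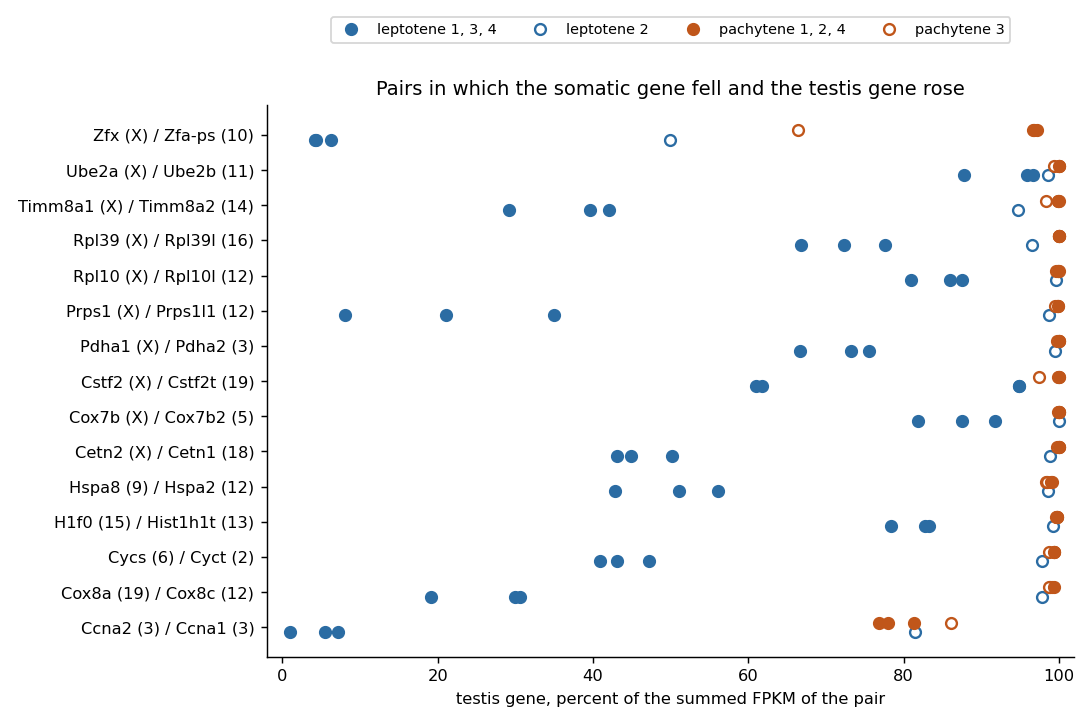
Share of the testis gene in the summed FPKM of each pair in which the widely used gene fell and the testis gene rose, with the chromosome of each gene in brackets; each point is 1 library, leptotene in blue and pachytene in orange, open for leptotene library 2 and pachytene library 3. Prps1l1 goes from 8.10% to 35.0% in the other leptotene libraries to 99.5% to 99.9% in pachytene.

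Long noncoding and antisense transcripts rose more often than they fell, but a list of known noncoding RNAs did not. Of 539 tested lincRNAs, 303 (56.2%) rose and 43 fell, and of 679 antisense transcripts 270 (39.8%) rose and 83 fell, against 2286 (20.9%) and 2509 (22.9%) of 10957 protein-coding genes. Of 30 tested members of the noncoding RNA list, 3 rose and 7 fell (median -0.28), or 5 and 10 without leptotene library 2. The antisense RNA 1700108J01Rik on chromosome 14 stood at 0.897, 48.2, 1.42 and 0.798 FPKM in leptotene and at 79.8, 57.7, 90.6 and 63.3 FPKM in pachytene (log2 difference 4.38, SE 0.70, limma adjusted p = 0.00778). The use of strand in counting is not given in the sources used here, so antisense values may hold reads of the opposite gene. The 10 highest genes held 65.9% to 69.2% of the summed FPKM of tested genes in the other leptotene libraries, 41.2% in leptotene library 2 and 30.9% to 39.1% in pachytene. Among these 10 in every library were Rn7s1 and Rn7s2, near-identical genes of the signal recognition particle RNA, and Rn7sk, a regulator of transcription elongation. Rn7s1 stood at 77049, 21947, 64959 and 52206 FPKM in leptotene and at 23190.0, 26283, 25033 and 25700.0 FPKM in pachytene. Leptotene library 2 was below the 4 pachytene libraries and the other leptotene libraries were above them. Rmrp, the RNA of the mitochondrial RNA processing ribonuclease, fell by 2.92, Terc, the telomerase RNA, by 2.41 and Rpph1, the RNA of ribonuclease P, by 2.21 on the log2 scale. A smaller share of such RNAs leaves more of the total to all other genes, and its part in the rises was not tested.

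Markers of testis cells outside the germ line ranged from below 1 FPKM in all libraries to 16.6 FPKM at most (Tjp1, of the Sertoli list). Insl3, of the Leydig list, reached 15.0 FPKM. In the other leptotene libraries the Sertoli genes Aard and Ctsl stood at 5.57, 12.3 and 6.92 FPKM and at 4.86, 5.49 and 8.18 FPKM. Of the 23 Sertoli genes present, 13 were tested, 9 fell and 4 were not called, or 11 fell without leptotene library 2. The Sertoli genes summed to 42.7 to 75.3 FPKM in the other leptotene libraries, 21.9 FPKM in leptotene library 2 and 10.9 to 16.8 FPKM in pachytene. Sox9, Fshr, Rhox5 and Dhh were among 8 that stayed below 1 FPKM in all libraries, and Trf was listed at 0 in all. Of 18 peritubular and vascular genes 8 were tested and 5 fell, or 6 without leptotene library 2. The 18 summed to 14.6 to 32.4, 5.94 and 2.97 to 4.64 FPKM in the same order. Myh11, Pecam1 and Kdr were among the 8 of these below 1 FPKM in all libraries. Leydig genes summed to 7.37 to 27.4 FPKM in leptotene and 8.56 to 12.6 FPKM in pachytene, and of 5 tested Star rose and 4 were not called, of which 1 fell without leptotene library 2. Blood and macrophage genes summed to 3.10 to 9.01 FPKM in leptotene and 2.99 to 3.93 FPKM in pachytene, and the 3 tested were not called, of which 1 fell without leptotene library 2. The part of such cells in the differences was not tested.

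The nascent RNA of the series gave a second readout, in animals that the labels number differently from those of the total RNA. Its leptotene library 2 also stood apart, with Piwil1 at 0.359, 40.7, 0.335 and 0.319 FPKM in nascent leptotene libraries 1 to 4 and 12.9 to 129.6 FPKM in nascent pachytene. Nascent Dmc1 was at 1.24, 0.574, 13.9 and 0.961 FPKM in pachytene libraries 1 to 4, again highest in library 3. Library numbers were spread over the animals in the same layout in both assays. Why the same library numbers stood apart in both was not tested. In the deposited nascent FPKM, 2530 of 13516 tested genes (18.7%) were higher and 2842 (21.0%) lower in pachytene. Of the 3989 genes higher in total RNA, 3276 were tested in nascent RNA, where 2200 (67.2%) were higher and 3 lower, with a median log2 difference of 1.32. Of the 3333 genes lower in total RNA, 2485 were tested, where 2025 (81.5%) were lower and 7 higher, with a median of -1.52. Over the 13171 genes tested in both, the nascent median was -0.22. Rsph1 had a nascent difference of 5.34, Tdrd6 of 5.01 and Piwil1 of 4.66. Rpl39l, with a rise of 3.09 in total RNA, had a nascent difference of -1.38 (limma adjusted p = 0.0603). Without nascent leptotene library 2 the nascent medians were 1.46 for the genes higher and -1.70 for the genes lower in total RNA. In the 5S-corrected form of the nascent values, which covers fewer libraries, they were 2.44 and -0.81 where the median of all genes was 1.35, against 1.63 and -1.77 in uncorrected values of those libraries. Of the 1310 genes lower in total RNA and tested in that form, 445 (34.0%) were lower and 44 higher. Of the 3408 genes higher in total RNA and tested in it, 3303 (96.9%) were higher and 0 lower. Over all 11364 genes tested in both, 55.8% were higher and 4.34% lower in that form. Whether total and nascent changes differed was not tested gene by gene.

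**Figure D5:**
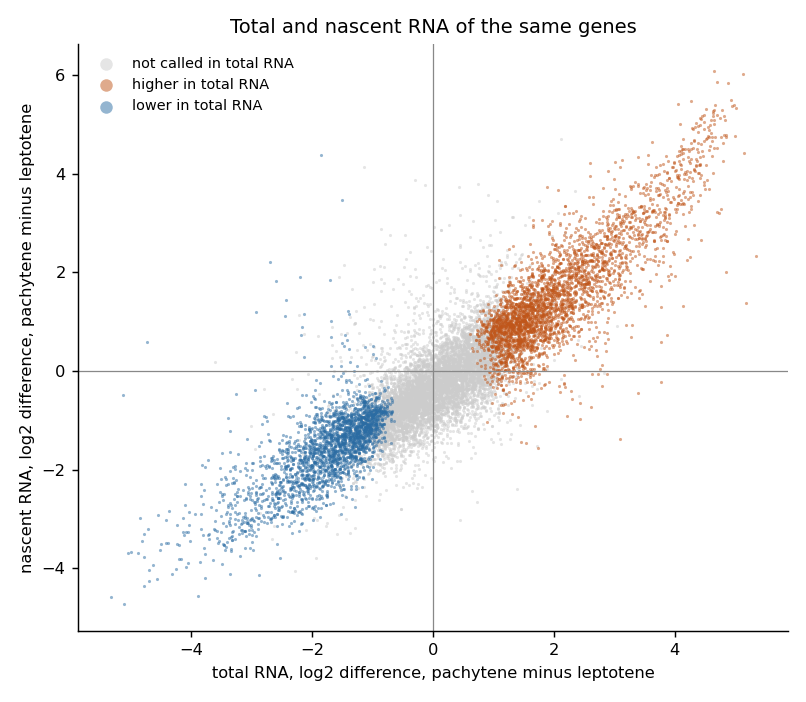
Log2 difference, pachytene minus leptotene, in total RNA (x axis) and nascent RNA (y axis) of the genes tested in both; orange genes were higher and blue genes lower in total RNA. The nascent median is 1.32 for the genes higher and -1.52 for the genes lower in total RNA.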

How the data were processed

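Total and nascent RNA of sorted mouse germ cells were deposited by the authors as FPKM per gene, for which the submitters' processing notes name STAR 2.5.2a, StringTie and mm10. The annotation, the StringTie version and the use of strand are not given in the sources used here. A further deposited table holds a signal, the nascent FPKM multiplied by a constant for each library. After removal of 92 spike-in rows, log2(FPKM + 1) was averaged per animal and stage. limma 3.58.1 under R 4.3.3 (lmFit, then eBayes with trend) gave two-sided tests, and Benjamini-Hochberg adjustment ran over all genes tested. Coordinates and gene types came from GENCODE M21 by symbol (94.8% of tested rows), and 80 tested rows carry merged symbols. All 37 mitochondrial rows were at 0, so a listed 0 may be a missing estimate. Low values gave whole reads for 30.0% to 33.7% of values within 0.05, so no count test was run. Libraries of the same title number did not deviate together (correlations of -0.13 to 0.05).

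Named genes are the 10 largest rises and falls called with and without leptotene library 2, no overlap without that library and 5 FPKM or more in the higher stage, called members of each list with the largest changes, X-linked rises, both genes of described pairs, and the 3 markers. Predicted genes and merged symbols were left out of the ranking. Other genes were named for their known roles or levels after the values were seen. Some genes that the rule names are not reported here. The members and lists were chosen with earlier results of these data known. Other steps used Python 3.11.15, pandas 2.3.3, numpy 2.4.6, scipy 1.17.1 and matplotlib 3.10.9.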

Additional observations from a re-analysis of the deposited data

Results flagged for a closer look

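Within groups of 4 libraries, the highest or lowest value was set against the rest by its gap over the range (Dixon's ratio, at its 95% limit), which chance passes in about 1 in 20 groups. Pachytene library 3 was set apart as the highest of its group for the leptotene markers Dmc1 (ratio 0.915), Prdm9 (0.976), Prss50 (0.919) and Tex15 (0.990), and pachytene library 4 for Meioc (0.839). Leptotene library 2 was set apart as the highest of its group for the pachytene markers Adam2 (0.908), Spata16 (0.907), Hspa2 (0.856) and Cetn1 (0.883). The median X-linked minus autosomal value set apart leptotene library 2 as the lowest of leptotene (0.840) and pachytene library 3 as the highest of pachytene (0.957). Over the 209 genes that the naming rule gives, leptotene library 2 was set apart in 66 and pachytene library 3 in 43, against 0 to 5 for each of the other 6 libraries. Many of these genes were chosen in the same libraries for stage differences, some by rules that leave out leptotene library 2. The rate of 1 in 20 therefore does not apply to these counts, which describe the named genes only. What sets these libraries apart was not tested.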

How the results depend on the processing

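The counts of genes higher and lower, 3989 and 3333, rest on few animals. With each animal as a fixed replicate block both counts were 0 (2382 higher and 2488 lower at an unadjusted p under 0.05), a fit that takes the difference from the 1 animal with both stages, and 0 and 0 without pachytene libraries 1 and 3 (unadjusted 3322 and 2429) or without 2 and 4 (3457 and 2323), which leave 1 pachytene animal. Leaving out 1 library gave 0 to 5467 higher and 0 to 4321 lower. The counts of 0 came without leptotene library 1 (unadjusted 1360 and 1885), where library 2 alone stood for its animal, and without leptotene library 4 the counts were 1774 and 1875. The title numbers as a replicate block gave 3003 and 2981, and animals as a random block 3938 and 3762. At least 1 FPKM in 4 libraries left 13081 genes tested, with 1654 lower and 3561 higher, 68.3% of the calls against 54.5%. Under that filter, a gene below 1 FPKM in all pachytene libraries passed only with all 4 leptotene libraries at 1 FPKM, library 2 included. Of the 3333 genes lower in the main fit, 2110 reached 1 FPKM in no pachytene library. What moved the split was not tested beyond this. Spike-in scaling gave 7320 higher, or 7378 without leptotene library 2. Without leptotene libraries 2 and 3, an alternative chosen after seeing the data, 5076 genes were lower.

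The X-linked minus autosomal difference was -3.87 with a pseudocount of 0.1, -0.21 without a filter on low values, which adds genes under 1 FPKM, -2.78 with at least 1 FPKM in 4 libraries, -2.34 with animals as a fixed replicate block and -2.25 without leptotene library 2 and with spike-in scaling. With the 5S-corrected nascent signal the nascent medians were 2.44 for genes higher and -0.81 for genes lower in total RNA, against 1.35 over all genes.

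List medians changed sign with spike-in scaling for strand exchange (0.38), crossover formation (0.68), axis and synaptonemal complex (0.23), checkpoint factors (0.31), division machinery (0.36), blood markers (0.16), translation control (0.63) and chromatin modifiers (0.61). They changed sign with animals as a fixed replicate block for crossover formation (0.11), checkpoint factors (0.0279), translation control (0.34) and chromatin modifiers (0.0175), without leptotene library 3 for translation control (0.0151, from -0.22 over the single libraries left out), without pachytene libraries 1 and 3 for checkpoint factors (0.0148) and translation control (0.0856), and with at least 1 FPKM in 4 libraries for Leydig markers (0.80). The cause was not tested. Other list medians kept their sign under every alternative run. The difference of a gene that was not called could change sign, as for Papola, at 0.34 with all libraries and -0.11 without leptotene library 2. Of 250 genes, the 209 given by the naming rule and others named in the text, none was called in the opposite direction under any alternative run. Of these, 216 lost their call with animals as a fixed replicate block, without leptotene library 1 and without either pachytene animal, where no gene was called, 44 without a filter on low values, 19 with spike-in scaling, 54 without leptotene library 4 and 16 without leptotene library 3.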

Other observations

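A small set of genes switched between high and near-absent values among libraries of the same stage, including libraries of the same animal. Of 2382 tested genes at 20 FPKM or more in any pachytene library, 109 had a range of at least 16-fold on the FPKM + 1 scale within pachytene, and 20 of these were called (13 higher, 7 lower), where 44.0% of all tested genes were. Between pachytene libraries 1 and 3 of animal IND2, 42 of 2080 such genes (2.02%) differed by that much, and between libraries 2 and 4 of animal IND4, 45 of 2097 (2.15%). Between libraries 1 and 4, which came from different animals, the count was 46 of 2137 (2.15%), about as many as within an animal.

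The genes named here were chosen after their values were seen. Slc2a3, the neuronal and sperm glucose transporter GLUT3, stood at 607, 11.5, 581 and 614 FPKM in pachytene libraries 1 to 4. 1700008K24Rik stood at 0.171 and 0.226 FPKM in libraries 1 and 3 of 1 animal and at 499 and 665 FPKM in libraries 2 and 4 of the other. Rbakdn was at 395, 353 and 331 FPKM in libraries 1, 2 and 4 and at 0.325 FPKM in library 3, and Calm2, a calmodulin gene, at 617 FPKM in library 1 and 36.3 to 57.6 FPKM in the others. Among the named genes, Ly6k, Ldha and Ybx1 belong to this set. What sets these values was not tested.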
